A study of Caenorhabditis elegans with 2 samples.

Results

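The 40 genes of the nuclear pore and of nuclear transport were examined for binding of EFL-1, a worm E2F transcription factor, in first-stage (L1) larvae of Caenorhabditis elegans. They were chosen by symbol, as all protein-coding genes whose name begins with npp-, imb-, ima-, xpo- or ran-, which gave 26 nucleoporin genes, 9 transport receptor genes and 5 genes of the Ran cycle out of 19973 protein-coding genes on the 6 nuclear chromosomes. Binding had been mapped by chromatin immunoprecipitation against efl-1 and sequencing. The material was whole L1 larvae of strain MT10430, male and female animals pooled. All larvae were labelled as carrying lin-35(n745), an allele of lin-35, which encodes the retinoblastoma-like pocket protein of this species. Peak lists cannot check that genotype. The samples used here hold no other genotype, stage or antibody. The series is therefore 1 group of 2 biological replicates, numbered 2 and 3, and binding is described within that group, with no test. Whole animals were used, so a peak averages over all cell types of the larva.

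The nuclear pore is the channel complex of the nuclear envelope. In it the Y complex and the inner ring form the scaffold, proteins with phenylalanine-glycine repeats fill the channel, and further subunits face the cytoplasm or the nucleus. Importins and exportins carry cargo through it, and the small GTPase Ran, loaded with GTP inside the nucleus by RCC1 and discharged outside by RanGAP, sets the direction. Both the pore and its traffic have to be rebuilt after each division of the embryo. E2F factors act with a DP partner, and the DREAM complex adds a pocket protein and the MuvB subunits, of which LIN-54 is known to bind the CHR element.

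The sequences at 7 of the summits are given first, since they show what the bound places look like: the strongest nucleoporin summit (npp-19), a strong Y complex summit (npp-23), a scaffold gene with 2 E2F-like matches (npp-8), a cytoplasmic-face gene (npp-9), a receptor with a CHR-like but no E2F-like match (imb-2), a receptor with none of the patterns (ima-3) and the Ran gene itself (ran-1). Each runs 5′ to 3′ on the strand of the gene, 90 bp to each side of the summit, from the RefSeq sequence of build WBcel235, which is ce11. Capitals mark 3 kinds of pattern on either strand. The E2F-like patterns are GCGCGAA and GCGGGAA, the CHR-like patterns are TTTGAA and TTCGAA, and the short GC pattern is GGCGC. The second CHR-like pattern reads the same on both strands. The short GC pattern can overlap the first E2F-like pattern where a G stands before it.
npp-19, chrII:10798590-10798770, minus strand: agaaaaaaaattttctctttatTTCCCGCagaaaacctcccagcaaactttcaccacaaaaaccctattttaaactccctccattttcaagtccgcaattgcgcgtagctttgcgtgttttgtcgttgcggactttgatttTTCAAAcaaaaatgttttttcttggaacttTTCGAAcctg
npp-23, chrIV:8869740-8869920, minus strand: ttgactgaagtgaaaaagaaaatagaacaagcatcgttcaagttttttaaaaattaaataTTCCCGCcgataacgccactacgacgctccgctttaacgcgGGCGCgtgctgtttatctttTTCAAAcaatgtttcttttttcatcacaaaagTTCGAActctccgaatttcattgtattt
npp-8, chrIV:1595911-1596091, minus strand: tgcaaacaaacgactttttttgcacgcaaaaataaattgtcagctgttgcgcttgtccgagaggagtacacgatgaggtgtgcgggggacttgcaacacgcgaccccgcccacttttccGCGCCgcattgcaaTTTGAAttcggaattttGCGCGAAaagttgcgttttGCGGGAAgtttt
npp-9, chrIII:3404548-3404728, minus strand: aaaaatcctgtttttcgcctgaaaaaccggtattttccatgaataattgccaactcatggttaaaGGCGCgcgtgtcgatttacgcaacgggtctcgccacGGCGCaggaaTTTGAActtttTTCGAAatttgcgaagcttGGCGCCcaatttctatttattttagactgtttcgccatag
imb-2, chrII:14365343-14365523, plus strand: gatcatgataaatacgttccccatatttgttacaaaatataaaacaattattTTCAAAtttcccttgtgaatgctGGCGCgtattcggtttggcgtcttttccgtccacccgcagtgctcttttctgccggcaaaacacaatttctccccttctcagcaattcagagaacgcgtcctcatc
ima-3, chrIV:7561866-7562046, minus strand: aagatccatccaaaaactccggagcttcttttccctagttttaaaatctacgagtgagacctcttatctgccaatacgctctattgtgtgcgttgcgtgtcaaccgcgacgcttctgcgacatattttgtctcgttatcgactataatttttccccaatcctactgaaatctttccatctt
ran-1, chrIII:10748110-10748290, minus strand: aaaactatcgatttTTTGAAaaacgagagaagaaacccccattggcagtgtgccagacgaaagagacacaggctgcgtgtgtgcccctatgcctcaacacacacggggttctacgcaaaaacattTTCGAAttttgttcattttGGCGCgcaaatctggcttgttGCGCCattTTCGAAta

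Most of the nuclear pore and transport genes had an EFL-1 peak. The authors selected their IDR list from a joint list of both replicates for reproducibility, at a threshold not stated. Of its 4534 peaks, 8 overlapped no region of replicate 3 and 1 overlapped none of replicate 2. The window of a gene ran from 1000 bp before to 500 bp after any of its annotated 5' ends. A gene was counted as bound when its window held a summit of the IDR list. By this rule 36 of the 40 genes were bound, against 19.6% of all protein-coding genes. Among the nucleoporin genes 23 of 26 (88.5%) were bound, among the transport receptor genes 9 of 9, and among the Ran cycle genes 4 of 5. The 36 genes rested on 36 separate peaks, so no member shared its strongest peak with another member. The 3 nucleoporin genes without an IDR summit were npp-4, npp-11 and npp-26, and the Ran cycle gene without one was ran-2.

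Stricter rules left fewer genes bound, among the members and among all genes. With summits within 300 bp of a 5' end, 23 of 40 members were bound, against 12.9% of all protein-coding genes. With each peak counted only for the gene with the nearest 5' end, 21 of 40 members were bound, against 14.7% of all genes. The 2267 strongest IDR peaks marked 27 of 40 members and 11.8% of all genes. The full joint list, which includes weak regions labelled as background, marked 37 of 40 members and 42.0% of all genes. Counting any base of a peak left 36 members, against 20.5% of all genes, and counting only the most upstream 5' end of each gene also left 36, against 18.5%. The 4534 strongest regions of replicate 3 alone marked 36 members and 19.4% of all genes, and those of replicate 2 alone 36 members and 19.6%. The 36 were not the same genes, since replicate 3 added npp-11 and lacked npp-21. In all, 14 of the 40 members were bound under every one of these rules. The matching share over all protein-coding genes is not given here, so this count has no comparison.

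**Figure D1:**
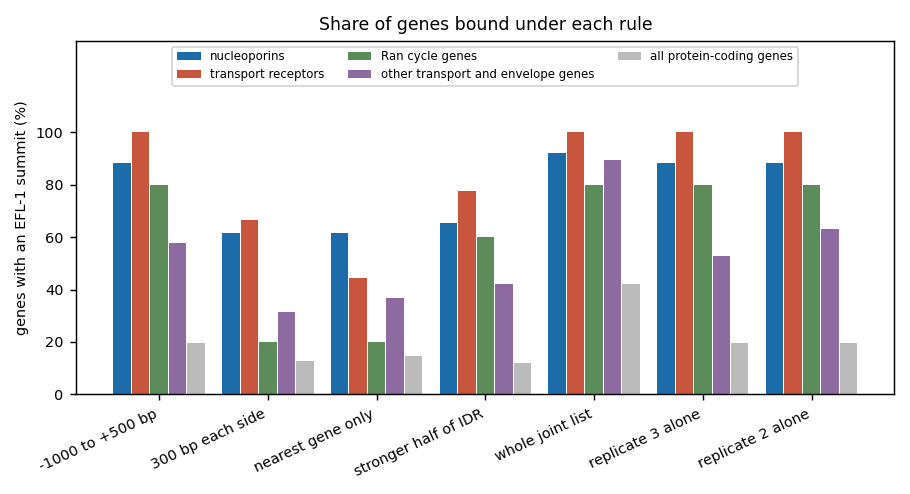
Share of genes (%, vertical axis) with an EFL-1 summit under 7 rules, for nucleoporin, transport receptor, Ran cycle and other transport and envelope genes, and for all protein-coding genes (grey). The transport and envelope set also held SUMO pathway genes and bub-3. The first group of bars has 88.5% of nucleoporin genes, 100% of transport receptor genes, and 4 of 5 Ran cycle genes, against 19.6% of all genes.

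The peaks at these genes spanned nearly the whole range of strength in the IDR list. Strength is given as the authors' signal value, on the scale of their peak caller, and as the rank by that value among the 4534 IDR peaks, where the median signal was 125 and the lowest 46.3. The median rank was 1220 for the 23 bound nucleoporin genes (range 35 to 4194) and 1517 for the 9 transport receptor genes (range 9 to 2412), against 1803 for all 3922 bound genes. The 4 bound Ran cycle genes had a median rank of 804 (range 649 to 3010). Among the 36 bound members 17 (47.2%) had a peak among the 1133 strongest, against 33.6% of all bound genes. Ranks of nucleoporin and receptor genes overlapped over most of their range. In both sets a few very strong peaks stood well apart from a broad middle, and 6 members ranked within the first 100, 4 nucleoporin genes and 2 receptor genes. The next member after these came at rank 407. The median joint signal was 244 at nucleoporin genes and 199 at receptor genes, against 167 at all bound genes. The difference between nucleoporin and receptor genes was not tested, and it turned round when each peak was counted for its nearest gene alone, with median ranks of 1260.5 for 16 nucleoporin genes and 566 for 4 receptor genes.

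**Figure D2:**
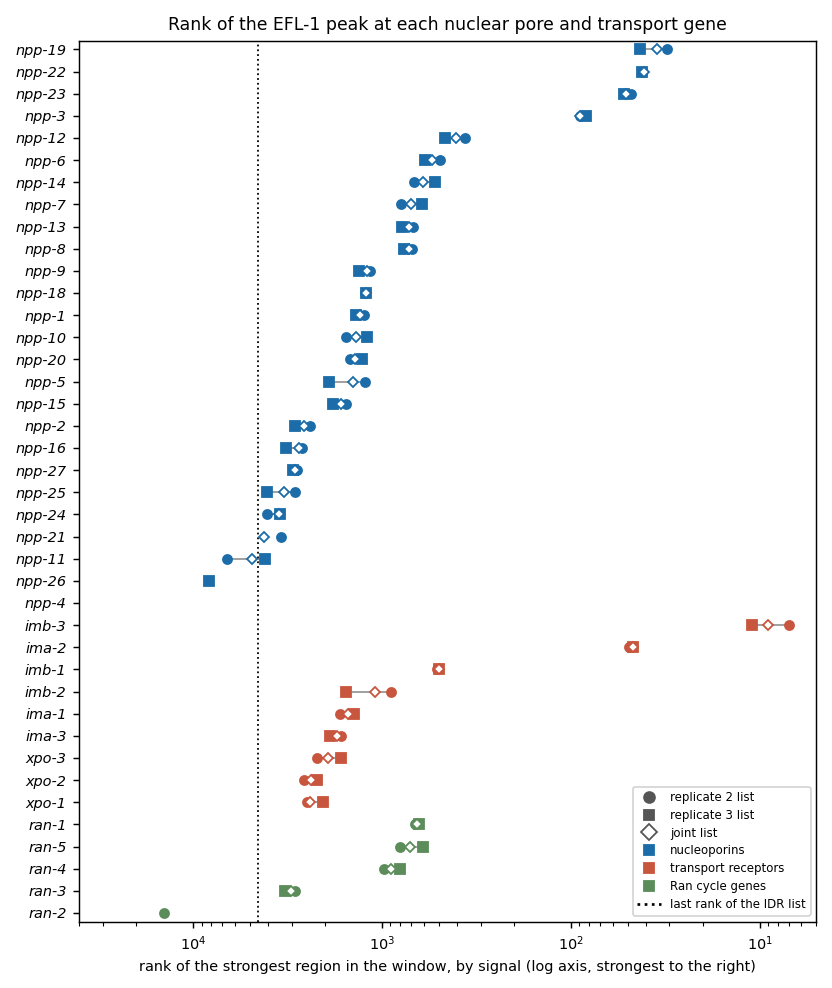
Rank by signal of the strongest region in the window of each member (log axis, strongest to the right) in the lists of replicate 2 (circles), replicate 3 (squares) and both jointly (open diamonds), with the last IDR rank, 4534, as a dotted line. The 6 members at the right ranked 9 to 89, and npp-4 has no symbol because no list held a region in its window.

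With the window from 1000 bp upstream to 500 bp downstream, every scaffold gene of the pore was bound, against 19.6% of all protein-coding genes. All 4 inner ring genes had peaks among the 1133 strongest: npp-19 (Nup35, rank 35), npp-3 (Nup205, rank 89), npp-13 (Nup93, rank 715) and npp-8 (Nup155, rank 717). The last 2 were nearly equal, with signals of 252 in replicate 2 and 150 in replicate 3 at npp-13, and 250 and 152 at npp-8. The peak at npp-19 lay at chrII:10798507-10798868 with a joint signal of 2367, and its signal was 1491 in replicate 2 and 883 in replicate 3 (ranks 31 and 43), with the summit at -201 bp in every list. That at npp-3 (chrII:11874703-11875033, joint signal 1629) had a signal of 970 in replicate 2 and 663 in replicate 3 (ranks 89 and 83), with the summit at -80 bp in every list. These 2 peaks thus held nearly the same place in each replicate. The summit at npp-3 also lay at -280 bp from top-2, the topoisomerase II gene on the other strand.

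All 8 Y complex genes were bound as well, with a median rank of 1376.5 and every summit between -395 and -105 bp. The strongest was npp-23 (Nup43, rank 51, chrIV:8869660-8870048), with a signal of 1254 in replicate 2 and 823 in replicate 3, ranks 48 and 52. The joint signal there was 2062, and the summit lay at -151 bp in the joint list, -148 bp in replicate 2 and -161 bp in replicate 3. Next came npp-6 (Nup160, rank 544), whose summit lay in an intron of spd-5, the gene of a centrosome scaffold protein. The npp-6 peak had a signal of 324 in replicate 2 and 189 in replicate 3, ranks 495 and 593, and a joint signal of 504 (chrI:5176291-5176562). Its summit lay at -395 bp, at -399 bp in replicate 2 and at -378 bp in replicate 3. Then followed npp-18 (Seh1, rank 1220), npp-10 (Nup98 and Nup96, rank 1368), npp-20 (Sec13, rank 1385), npp-5 (Nup107, rank 1414) and npp-15 (Nup133, rank 1648). The weakest of the complex was npp-2 (Nup85, rank 2594). Only npp-23 and npp-6 were among the 1133 strongest. Within 300 bp of a 5' end npp-2, npp-6, npp-10 and npp-15 had no IDR summit. At npp-6, npp-10 and npp-15 a gene on the other strand had the nearer 5' end. The summit lay at -382 bp from npp-10 and -215 bp from cyk-3, and at -307 bp from npp-15 and -19 bp from C29E4.13. The ranks of the Y complex and the inner ring overlapped, since npp-23 stood ahead of npp-3, npp-13 and npp-8, and npp-6 ahead of npp-13 and npp-8.

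The membrane nucleoporins differed widely. The peak at npp-22 (NDC1, chrV:11733521-11733849) ranked 41 with a joint signal of 2213, and had a signal of 1318 in replicate 2 and 895 in replicate 3, rank 42 in both, with the summit in the 3' UTR of the neighbouring gene spe-42 at -209 bp. Replicate 2 placed it at -219 bp and replicate 3 at -209 bp. The peak at npp-12 (gp210, chrI:6446521-6446816) ranked 407, with a joint signal of 626 and signals of 408 in replicate 2 and 229 in replicate 3, ranks 362 and 461. Its summit lay at -648 bp (-649 and -637 bp in replicates 2 and 3), and only -191 bp from T23H2.3 on the other strand. That at npp-25 (TMEM33) ranked 3287. On the cytoplasmic face npp-14 (Nup214) ranked 602, npp-9 (Nup358) 1200 and npp-24 (Nup88) 3515. The signal at npp-14 was 252 in replicate 2 and 213 in replicate 3, that at npp-24 only 34.7 and 27.5, with a summit at -16 bp in an intron of npp-24 itself. In the nuclear basket npp-7 (Nup153) ranked 699, npp-16 (Nup50) 2739 and npp-21 (TPR) 4194. The one class with most of its genes unbound was the central channel, where npp-1 (Nup54) ranked 1301 and both npp-11 (Nup62) and npp-4 (Nup58) had no IDR summit. Of the 2 genes given no role here, npp-27 ranked 2899 and npp-26 had no IDR summit.

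The weakest bound nucleoporin gene and the strongest unbound one lay on either side of the IDR limit. At npp-21 the joint signal was 52.7. Replicate 2 had a region of signal 44.6 there, at rank 3401, while replicate 3 had no region in the window. Its peak was 1 of 8 IDR peaks with no overlapping region in the list of replicate 3. At npp-11 (on the other side of the lowest IDR signal, 46.3) the joint list held a region outside the IDR list with a signal of 41.3 (rank 4897, summit at -233 bp). Its signal was 17.7 in replicate 2 and 21.6 in replicate 3, ranks 6634 and 4134, so the region was present in both but weak. At npp-26 only replicate 3 had a region, with a signal of 11.3 at 371 bp downstream (rank 8204), and the nearest IDR summit lay at -1359 bp with rank 3962. At ran-2, the RanGAP gene, only replicate 2 had a region, with a signal of 9.60 at -246 bp (rank 14262). No list held a region in the window of npp-4, whose nearest IDR summit lay at -4534 bp. The read depth behind these lists is unknown, so a weak site could not be told from none.

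The import receptors included the strongest peak of the whole set. At imb-3, the importin 5 gene, the peak ranked 9 (chrI:315070-315441) with a joint signal of 3900, and a signal of 2402 in replicate 2 and 1509 in replicate 3 (ranks 7 and 11). The summits of both replicates lay within 1 bp of each other, at -247 and -246 bp. At ima-2, one of the importin alpha genes, the peak ranked 47 (chrI:6314723-6315088), with a signal of 1248 in replicate 2 and 855 in replicate 3 (ranks 49 and 47). Its summit lay at -330 bp in replicate 2 and -326 bp in replicate 3. Importin alpha is the adaptor that holds the classical nuclear localization signal. The other importin alpha genes lay far lower, ima-1 at rank 1517 and ima-3 at rank 1734, so all 3 paralogues were bound, with joint signals of 2102 at ima-2, 199 at ima-1 and 174 at ima-3. At ima-1 the replicates gave 111 and 83.8, at ima-3 111 and 61.7, replicate 2 first. The importin beta 1 gene imb-1, the partner of importin alpha, ranked 501, with signals of 317 in replicate 2 and 218 in replicate 3 (ranks 512 and 497, chrI:4926458-4926707). The joint signal was 533, and the summit lay at -98 bp, and at -96 bp in replicate 3. The transportin gene imb-2 ranked 1085 (chrII:14365316-14365522), with 198 in replicate 2 and 76.4 in replicate 3 (ranks 893 and 1554) and a joint signal of 271. The summit lay at -268 bp, and at -296 bp in replicate 3. The gap between the replicate ranks of imb-2, 1.74 times, was the widest among the 35 members with a region in both.

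In the joint list the 3 exportin genes ranked below all 6 importin genes. The tRNA exporter gene xpo-3 ranked 1933 (signal 151), the gene of CAS, which returns importin alpha to the cytoplasm, xpo-2, ranked 2375 (119), and the CRM1 gene xpo-1 ranked 2412 (116). The lowest rank of an importin gene was 1734, and no exportin gene was among the 1133 strongest peaks. Their signals in replicates 2 and 3 were 78.5 and 72.4 at xpo-3, 65.1 and 51.7 at xpo-2, and 67.6 and 55.9 at xpo-1. The order of the classes held in replicate 2 but not in replicate 3, where xpo-3 (rank 1651) stood above ima-3 (rank 1882). Each of the 3 peaks was shared with a gene on the other strand whose 5' end was nearer. The same held for the importin genes ima-1 (-293 bp, and -51 bp from dvc-1) and imb-1 (-98 bp, and -51 bp from mfsd-13.1). The peaks of ima-2, ima-3, imb-2 and imb-3 lay in no other gene's window. At xpo-1 the summit lay at -855 bp from the nearest 5' end of xpo-1 and at -1 bp from that of uvs-1. It lay at -313 bp from xpo-2 and -190 bp from nol-14, and at -252 bp from xpo-3 and -66 bp from C49H3.3.

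Of the 4 bound Ran cycle genes 3 had peaks among the 1133 strongest, and the fourth, ran-3, had a weak one. The Ran gene ran-1 ranked 649 (chrIII:10748058-10748325), with signals of 255 in replicate 2 and 182 in replicate 3 (ranks 666 and 635) and a joint signal of 439. Its summit lay at -472 bp (-456 bp in replicate 2), with dkc-1 nearer on the other side at -229 bp. The RanBP3 gene ran-5 ranked 712 (chrII:6047731-6047952), with 220 in replicate 2 and 188 in replicate 3 (ranks 799 and 604) and a joint signal of 406. Its summit lay at -254 bp in a coding exon of R12C12.6. The NTF2 gene ran-4, whose product carries Ran back into the nucleus, ranked 896 (180 in replicate 2 and 147 in replicate 3), and ran-3, for RCC1, ranked 3010. The unbound gene ran-2 has npp-15 upstream on the same strand, 480 bp away, and the npp-15 peak was the nearest IDR summit, at -4799 bp.

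The replicates placed these peaks much alike. A region lay in the window in both replicates at 35 of the 36 bound members, and at all 35 both regions overlapped the IDR peak. The better of the ranks differed from the worse by a median factor of 1.17 (range 1.00 to 1.74), against 1.17 over 4525 IDR peaks with a region in both lists. The signal of replicate 2 over that of replicate 3 had a median of 1.53 (range 1.08 to 2.59), and over all those IDR peaks it was 1.54, so values of replicate 2 were the higher ones at members and other peaks alike. Summits were a median of 12 bp apart and at most 29 bp, against a median of 13 bp over all. The better rank was in replicate 2 at 14 nucleoporin and 3 receptor genes, and in replicate 3 at 7 nucleoporin and 6 receptor genes. The IDR list was made from both replicates jointly, so agreement within it is partly built in.

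All 36 strongest summits lay upstream of the member's nearest 5' end, as did those of 3650 of all 3922 bound genes. The median position was -265 bp (range -855 to -16), against -215 bp over all bound genes. It was -209 bp for nucleoporin genes and -292 bp for transport receptor genes. Between -400 and -100 bp lay 26 of the 36 (72.2%), against 53.0% of all bound genes. By annotation 32 summits lay between genes, 2 in introns, 1 in a coding exon and 1 in a 3' UTR. Trans-splicing, common in nematodes, can place the annotated 5' end inside the primary transcript.

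**Figure D3:**
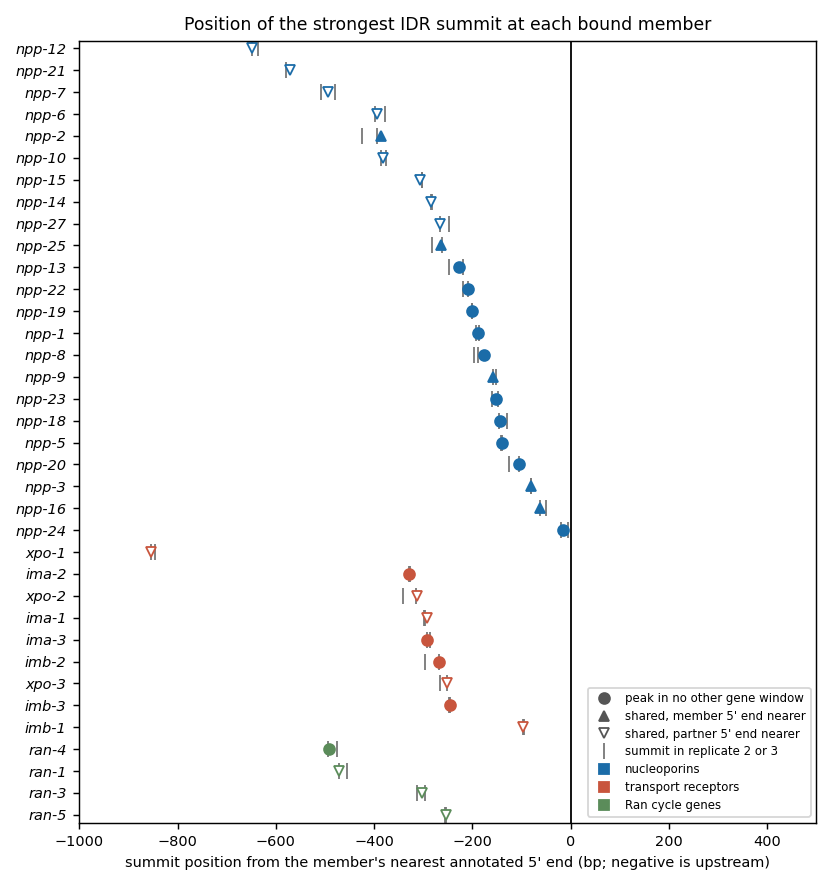
Position of the strongest IDR summit at each bound member (bp from its nearest annotated 5' end, negative upstream), with the summits of the replicates as grey ticks. All lie left of 0, and open triangles mark the 16 peaks for which a gene on the other strand had the nearer 5' end.

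Many of the peaks also lay in the window of another gene, at a share near that of bound genes at large. This held for 21 of the 36 peaks (58.3%), against 51.3% for all bound genes. The other gene was on the opposite strand at all 21, and at 1860 of the 2011 bound genes with a shared peak. In 16 of these 21 the other gene had the nearer 5' end, and in 5 the member had. A shared peak was present at 13 of the 23 bound nucleoporin genes and 5 of the 9 receptor genes. Position alone does not assign a shared peak to either gene. The nucleoporin genes had the nearest 5' end at 15 of 23 bound genes (65.2%), the transport receptor genes at 4 of 9 (44.4%) and all bound genes at 73.5%.

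Members were bound both beside divergent neighbours and beside same-strand ones. For 20 of the 40 the nearest upstream protein-coding gene was divergent and under 1000 bp away, against 21.2% of all genes, and all 20 were bound, against 40.4% of all genes in that arrangement. With a same-strand neighbour under 1000 bp upstream 7 of 10 members were bound, against 14.7% of all such genes. The 3 that were not bound in that class were npp-4, npp-26 and ran-2. With a divergent neighbour 1000 bp or more away 8 of 9 were bound, against 16.5%, the exception being npp-11. The set held 13 genes on chromosome I, 8 each on II, III and IV, 3 on V and none on X.

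Sequence around the summits was examined for the patterns given with the sequences above. Within 100 bp of the summit an E2F-like pattern was present at 11 of the 36 bound members (30.6%), against 11.9% of 2902 strongest peaks of all bound genes and 2.78% of 72 windows centred 500 bp to each side of the members' summits. A CHR-like pattern was present at 28 (77.8%), against 49.9% of the peaks of all bound genes and 43.1% of the members' own flanking windows. Over all IDR peaks the order was the reverse, with 44.7% at summits and 53.3% in windows centred 500 bp to each side. Both E2F-like and CHR-like patterns lay near 8 member summits (22.2%), against 7.99% of all bound genes' peaks. These were npp-3, npp-8, npp-10, npp-19, npp-22, npp-23, ima-2 and imb-3, which include all 6 members ranked within the first 100. The short GC pattern was present at 20 (55.6%), against 32.3%. Median GC content of the windows was 39.6% at members and 40.8% at all bound genes' peaks. Of the promoters of all protein-coding genes, from 250 bp upstream to 50 bp downstream of the most upstream 5' end, a longer window, 5.01% held an E2F-like pattern, 68.9% a CHR-like one and 14.1% the short GC pattern.

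By role, E2F-like patterns lay near 8 of 23 nucleoporin summits (34.8%) and 3 of 9 transport receptor summits (33.3%), and near none of the 4 Ran cycle summits. CHR-like patterns lay near 20 of 23 nucleoporin summits (87.0%), 6 of 9 receptor summits (66.7%) and 2 of 4 Ran cycle summits. No pattern of any kind was found at npp-27 and ima-3, both bound. In the printed sequences the capitals show a TTCCCGC, the reverse complement of GCGGGAA, at both npp-19 and npp-23 upstream of the summit and CHR-like matches on its other side. A match describes the letters in the window and no match says nothing of whether the factor bound there.

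**Figure D4:**
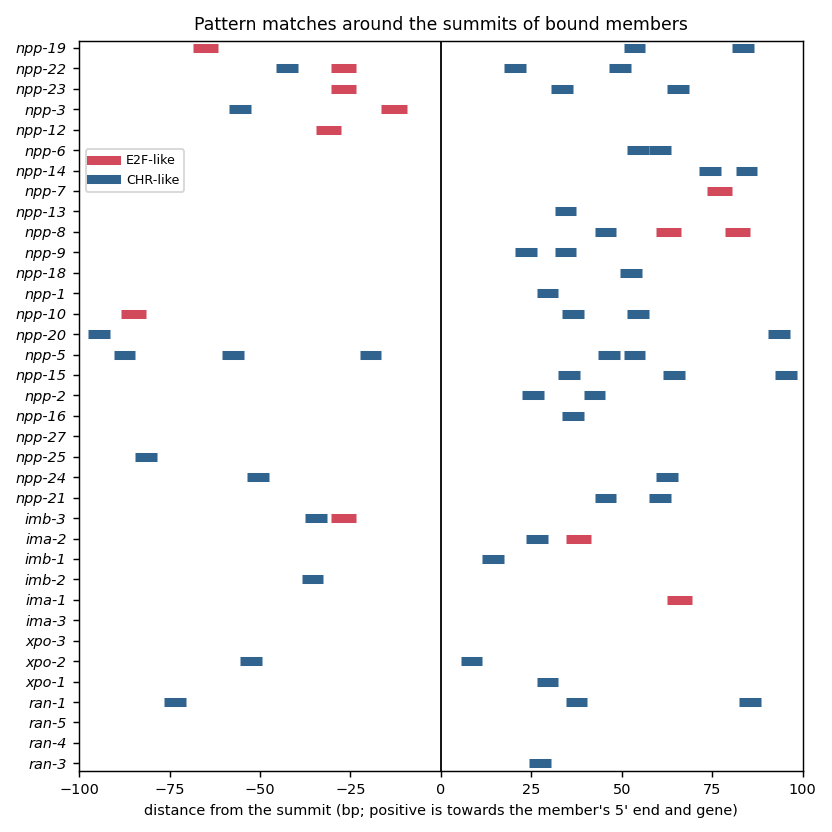
E2F-like and CHR-like matches around the summit of each bound member (horizontal axis, bp from the summit, positive towards the gene). Short GC matches are not drawn. CHR-like matches are present at 28 of the 36 members and E2F-like matches at 11, and npp-27, ima-3, ran-4, ran-5 and xpo-3 have neither.

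**Figure D5:**
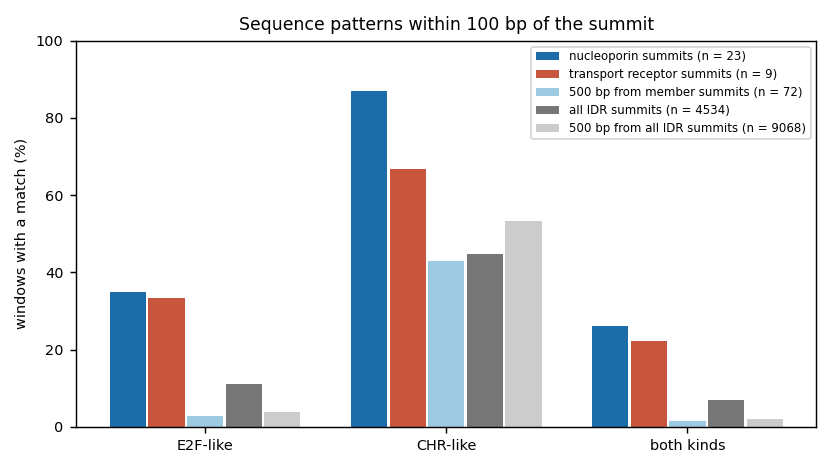
Share of windows (%, vertical axis) with an E2F-like pattern, a CHR-like pattern or both, within 100 bp of nucleoporin summits, transport receptor summits, points 500 bp to each side of the members' summits, all IDR summits, and points 500 bp to each side of all IDR summits. Both kinds together stood at 26.1% of nucleoporin summits and 22.2% of receptor summits, against 7.01% of all IDR summits.

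Other genes of nuclear transport, RNA export and the nuclear envelope, in a list of 38 not taken by the symbol rule, were examined beside the members. The list also held SUMO pathway genes, of which smo-1, ubc-9 and uba-2 were bound and aos-1, ulp-1 and gei-17 were not. It further held the spindle checkpoint gene bub-3, which was bound (rank 2537). Of all 38 genes 22 (57.9%) were bound, with a median rank of 1471.5, against 19.6% of all protein-coding genes. The strongest peak was at thoc-5, an RNA export gene of the THO complex (rank 28, replicate ranks 29 and 26). Next came thoc-7, another of its genes (rank 269, summit at -785 bp, shared with rpl-29), and lem-2, for an inner nuclear membrane protein (rank 428). The THO gene thoc-3 ranked 3242 with its summit at -956 bp, and thoc-1 and thoc-2 had no IDR summit. The nucleoporin genes mel-28 and rae-1, which lack an npp- symbol, ranked 3836 and 730. The mRNA export receptor gene nxf-1 ranked 1444 and its partner nxt-1 1874, whereas nxf-2 had no IDR summit. Of the 3 adaptor genes aly-2 ranked 601 (526 in replicate 2 and 752 in replicate 3), and aly-1 and aly-3 had no IDR summit. Other genes linked to the envelope were mixed. Bound were baf-1 (rank 1079), emr-1 (1089), lmn-1 (1969, summit at -981 bp), unc-84 (4015) and lem-3 (4493). No IDR summit lay in the windows of sun-1, unc-83, zyg-12 and anc-1.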

How the data were processed

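Peak lists in narrowPeak form on build ce11 were used: 1 for each of replicates 2 and 3, a joint list of peaks and background, and the IDR list taken from it. Per the deposited description texts, each replicate list derives from that replicate's alignments, and the joint list from the alignments of both, and these 3 had a further input that is not described there. IDR peaks were then selected from the joint list. The aligner, the caller and the IDR threshold are not stated in these sources. Read depth is unknown, so no interval is given. Signal values are the authors', as deposited, and served to order peaks within a list. Their scale may differ between lists, and the ratio of replicate 2 to replicate 3 is given only as a description. Deposited −log10 q values, also made by the authors, were read but ordered nothing. The summit came from the deposited offset. Lists on the older build ce10 were not used.

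The 19973 protein-coding genes with 29314 transcript 5' ends came from Ensembl release 115 (WBcel235, the ce11 build), and sequence from RefSeq. All shares, ranks, positions and pattern matches were computed with Python 3.11.15 on all genes, tested on simulated summits at known positions, and printed mainly for the members. There was 1 group of samples, so no test was run. Members, lists, patterns and rules were chosen with earlier results of these data known. Every member is named. Full values are given for the 6 nucleoporin, 4 transport receptor and 2 Ran cycle genes with the best IDR rank and for unbound members with a region in the joint list; values of other genes were added after they were seen. For the planned promoter table, promoters from the Ensembl 5' ends were used. The labels call the samples biological replicates.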

Additional observations from a re-analysis of the deposited data

How the results depend on the processing

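The counts of bound members moved by more than 1.5 times under the narrower rules. Within 300 bp of a 5' end 23 members, 1 Ran cycle gene and 12 other pathway genes were bound, against 12.9% of all protein-coding genes. With each peak given to its nearest gene, 21 members, 4 transport receptor genes, 1 Ran cycle gene and 14 other pathway genes were. The share of all genes under that rule was 14.7%. In the full joint list 34 of 38 other pathway genes were bound, against 42.0% of all genes. Nucleoporin counts stayed between 16 and 24 under all 8 alternatives, within 1.5 times of 23.

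Either replicate alone gave 36 members, 23 nucleoporin genes, 9 transport receptor genes and 4 Ran cycle genes. Other pathway genes numbered 20 with replicate 3 alone and 24 with replicate 2 alone. Of all genes, replicate 3 alone marked 19.4% and replicate 2 alone 19.6%. The median rank of bound nucleoporin genes was 1210 within 300 bp, 1260.5 with nearest genes only, and 1220 to 1224 in the replicates alone. That of transport receptor genes was 1301 within 300 bp, on 6 genes, and 566 with nearest genes only, on 4 genes, below the nucleoporin median in that setting, and 1554 to 1649 in the replicates alone. The median summit position was -259 bp with the peak nearest the 5' end, -201 bp within 300 bp, -189 bp with nearest genes only and -263.5 to -259.5 bp in the replicates alone. Narrower rules keep fewer, nearer peaks by construction. Within 50 bp of the summit 6 members (16.7%) had an E2F-like pattern, against 8.34% of all bound genes' peaks. With the first letter dropped 15 (41.7%) had, against 23.5% of those peaks and 15.3% of the members' flanking windows, so the ratio to other peaks was smaller than with the full patterns within 100 bp (30.6% against 11.9%). No paired analysis was possible because there is 1 group.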

Other observations

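The CHR-like matches near the summits of the bound members lay mostly on the side of the member's own gene. This was noticed after the positions had been seen and is a description without a test. Of the 28 members with such a match within 100 bp, the match nearest the summit lay between the summit and the gene at 22 (78.6%), and beyond the summit at 6. Among 2007 other bound genes with a match the share on the gene side was 48.2%. For nucleoporin genes it was 16 of 20 and for transport receptor genes 4 of 6. With only peaks that lay in no other gene's window, it was 9 of 13 members, against 47.5% of 873 bound genes. The first base of the nearest match lay 20 to 80 bp past the summit at 18 of the 28, against 700 of the 2007 other bound genes. At npp-19 it lay 51 bp past the summit, at npp-23 31 bp, at npp-22 18 bp and at npp-9 21 bp, while at npp-3 it lay 58 bp and at imb-3 37 bp on the far side. E2F-like matches showed no such lean to the gene, with 4 of 11 members on the gene side and 48.7% of 456 other bound genes with a match. Of the 8 members with both kinds, npp-10, npp-19, npp-22 and npp-23 had the E2F-like match on the far side and the nearest CHR-like match on the gene side. At the other 4 both lay on one side, the gene side at ima-2 and npp-8 and the far side at npp-3 and imb-3.

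The promoter windows of all 40 members, taken without regard to peaks, held an E2F-like pattern in 7 (17.5%) and a CHR-like one in 34 (85.0%), against 5.01% and 68.9% of the promoters of all protein-coding genes.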
